A study of Mus musculus with 16 samples.

Results

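Brain RNA of neonatal mice was set against a common pool of adult mouse tissues on 16 cDNA arrays with 2 colours, and all 16 arrays of the series were used. The measure throughout is the log2 ratio of neonatal brain over the adult pool, taken as the mean of the 4 genotype means. Of 8691 named genes tested, 124 were far above the pool and 183 were far below it. Far means a mean log2 ratio of at least 2 in size, which is 4-fold, with a value on the same side of 0 on all 16 arrays.

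The 4 groups had 4 arrays each. They were brains of Cx43 null mice, which lack the gap junction gene Gja1, of Cx43 heterozygous mice, of Cx32 null mice, which lack the gap junction gene Gjb1, and of wild-type mice. The labels give the strain as C57BL for the 3 connexin-deficient lines and C57BL/6j for wild type, and no age in days. The sample titles say neonatal for every group but Cx32 null, whose brains are taken as neonatal here. Brain cDNA carried Cy3 per the labels, although for wild-type replicates 3 and 4 they name a dye for the pool alone. The Cy5 pool was made in a single batch of adult male and female mice and held brain, liver, heart and aorta, lung, kidney, spleen, stomach and the gonads of either sex. Every array therefore shared the same pool, and its own spread is not part of any test. No label states a dye swap, so a dye effect and a difference between brain and pool cannot be told apart. Nor can age and tissue, since the brains were taken as neonatal and the pool was adult. Adult brain was itself a part of the pool.

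In the newborn mouse brain most cortical neurons have been born, axons and dendrites are still growing, and synapses are only beginning to form. Radial glia are giving way to astrocytes, and myelin is scarce. Adult liver, heart, lung, stomach and testis each make a small number of transcripts in very large amounts, among them plasma proteins, contractile proteins, surfactant, mucosal peptides and sperm nuclear proteins.

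The promoters of 4 of these genes are shown because they belong to genes at both ends of the scale: Fabp7 and Ptn stood far above the pool, and Prm2 and Sprr2a1 were the 2 lowest of the genes far below it. Each is a window of 300 bases, 250 before and 50 after the start of the transcript, from RefSeq on GRCm38.p6. Capitals mark CG dinucleotides and the motif TATAAA, searched on both strands, which reads TTTATA on the reverse strand.
Fabp7, chr10:57784673-57784972, forward strand: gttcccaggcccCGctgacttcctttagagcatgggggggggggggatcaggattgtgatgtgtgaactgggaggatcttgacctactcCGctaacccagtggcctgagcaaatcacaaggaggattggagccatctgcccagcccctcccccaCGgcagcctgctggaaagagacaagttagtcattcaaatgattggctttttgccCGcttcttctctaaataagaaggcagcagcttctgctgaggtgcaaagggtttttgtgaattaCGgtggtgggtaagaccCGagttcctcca
Ptn, chr6:36810130-36810429, reverse strand: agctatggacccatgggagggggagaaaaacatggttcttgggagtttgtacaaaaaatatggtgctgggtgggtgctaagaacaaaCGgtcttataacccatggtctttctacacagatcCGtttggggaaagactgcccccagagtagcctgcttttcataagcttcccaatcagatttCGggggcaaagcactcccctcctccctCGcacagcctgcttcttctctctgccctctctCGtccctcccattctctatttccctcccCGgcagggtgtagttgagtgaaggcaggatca
Prm2, chr16:10792056-10792355, reverse strand: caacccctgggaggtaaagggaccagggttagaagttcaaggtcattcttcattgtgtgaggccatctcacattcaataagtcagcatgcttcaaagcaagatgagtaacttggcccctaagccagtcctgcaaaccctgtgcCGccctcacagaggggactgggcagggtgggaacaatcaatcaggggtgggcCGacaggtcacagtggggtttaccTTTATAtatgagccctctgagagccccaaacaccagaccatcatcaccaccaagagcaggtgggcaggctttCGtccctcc
Sprr2a1, chr3:92215585-92215884, forward strand: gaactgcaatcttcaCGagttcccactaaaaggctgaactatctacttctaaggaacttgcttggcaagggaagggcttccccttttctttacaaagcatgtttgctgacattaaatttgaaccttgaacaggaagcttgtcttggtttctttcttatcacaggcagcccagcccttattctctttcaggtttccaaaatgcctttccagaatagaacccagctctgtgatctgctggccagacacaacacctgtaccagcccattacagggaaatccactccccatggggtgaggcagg
The Fabp7 and Ptn windows held 6 CG dinucleotides each, and the Prm2 window 3. The Sprr2a1 window held 1. Among the 4, the motif occurred in the Prm2 window alone.

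The arrays carried values for 21010 to 24819 of 28704 spots each, and the number of arrays limits the precision. Gja1, the gene deleted in the Cx43 lines, had log2 ratios of -0.60, -1.71, -2.10 and -2.92 in Cx43 null brains and of -1.09, -1.27, -1.25 and -1.86 in Cx43 heterozygous brains. Against these stood 0.13, 0.10, -0.07 and 0.27 in Cx32 null brains and 2.47, 1.13, 1.48 and 1.17 in wild-type brains. The wild-type arrays were all above both Cx43 lines and above Cx32 null. Null and heterozygous arrays overlapped, and the highest null array was replicate 1. That array correlated better with wild-type arrays (median r = 0.887 over spots) than with its own group (median r = 0.857). No spot was named Gjb1. Wild-type replicate 1 stood apart, with a median correlation of 0.576 with the other 15 arrays. In 4 of the 48 printed blocks, between 1 and 6 arrays were counted as out of step with the others. In blocks 25 and 41 their values matched another array better 26 spots on, which is 1 printed line. Wild-type replicate 1, not in that count, also matched better 26 spots on in block 25 (r = 0.45 against 0.27 in place). All wild-type arrays were therefore displaced in that block. In blocks 13 and 18 the array out of step was wild-type replicate 4, and no such shift was seen. The 4 blocks hold spots of 12 of the 124 genes far above and 15 of the 183 far below the pool.

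Most transcripts differed from the pool. Of 14329 tested transcripts, which are the 8691 named genes and 5638 spots with no single gene name, 5700 were above the pool at an adjusted p under 0.05 (39.8%). A further 6008 were below it (41.9%), so that 81.7% passed on either side, and 2621 did not pass. The test was limma's moderated test of the mean against 0, adjusted by the Benjamini-Hochberg method over all 14329 transcripts, and the median standard error of a mean was 0.082. With so many calls, a bare count of members past the test says little, and the size of the ratio and its side on each array are given below. A value on all 16 arrays was present for 6969 named genes. Of these, 1537 lay above the pool on every array (22.1%) and 1405 below it on every array (20.2%), while 4027 had arrays on both sides. Sorting on size as well left 1.78% far above and 2.63% far below.

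**Figure D1:**
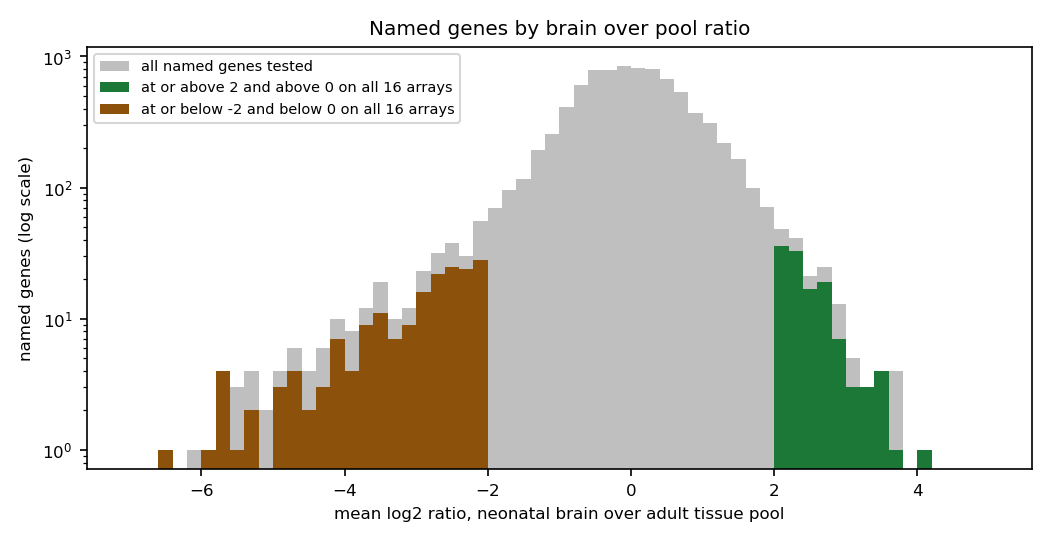
Number of named genes (vertical, log scale) by mean log2 ratio of neonatal brain over the adult pool (horizontal), with all 8691 tested genes in grey and the genes far above and far below in colour. The lower tail is longer: 28 far-below genes were at or below -4 and 1 far-above gene was at or above 4. Grey bars past the cuts are genes that lacked a value on some array or had arrays on both sides.

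The 2 tails had different shapes. The 124 genes far above had a median log2 ratio of 2.35, and 12 of them reached 3. The 183 genes far below had a median of -2.72, and 68 of them reached -3. Another 39 genes past the upper cut and 90 past the lower cut lacked a value on at least 1 array, and 2 and 13 more had arrays on both sides of 0. The cuts fall within a continuous range. The last genes inside were Bex1 at 2.0043 and Klhl13 at 2.0007 above the pool, and Alas2 at -2.0086 and Phkg2 at -2.0021 below it. The first outside were Tubb4a at 1.9996 and Pnma2 at 1.9907 above, and Hsd3b1 at -1.9965 and Ttpa at -1.9951 below. Where a far gene had several spots with at least 3 values in each genotype, the spots could be set against each other. All 72 such genes far above and all 53 far below had every spot's mean on the same side, against 2448 of 3738 named genes with several spots (65.5%). The far genes were chosen for large ratios, so a higher share is built into the choice.

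Fabp7, Nrep and Ptn had the 3 highest means among the genes far above. Fabp7, a fatty acid binding protein of radial glia, had log2 ratios between 3.14 and 4.79 with a median of 4.33. Its mean of 4.16 ± 0.09 (SE over 16 arrays in 4 genotypes) is a 17.9-fold ratio and the highest among the far genes, with a limma adjusted p of 6.7e-17. All 16 arrays were above 3. Nrep, a neuronal protein of regenerating and growing axons, ran from 3.36 to 4.03 with a median of 3.78 (mean 3.73 ± 0.06, 13.3-fold). Ptn encodes pleiotrophin, a heparin-binding growth factor that promotes neurite growth. It lay between 2.98 and 5.40 with a median of 3.41 (mean 3.55 ± 0.11, 11.7-fold), and the highest array was wild-type replicate 1.

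Next among the highest genes were several of the cytoskeleton. Dpysl3, a collapsin response mediator of growth cones, ranged from 2.51 to 4.12 with a median of 3.55 (mean 3.47 ± 0.08, 11.1-fold). Stmn1, which binds free tubulin and is abundant in newborn neurons, ranged from 3.00 to 4.04 with a median of 3.38 (mean 3.43 ± 0.07, 10.8-fold). Both genes were more than 4-fold above the pool on each of the 16 arrays. Tubb2b, the beta tubulin of migrating neurons, ranged from 1.91 to 4.07 (mean 3.15 ± 0.10), and its 2 spots averaged 2.61 and 3.68. Map2, a microtubule protein of dendrites, kept to a narrow range of 2.76 to 3.85 (mean 3.11 ± 0.07). Marcksl1, an actin-binding substrate of protein kinase C, was the most even of all far genes across genotypes. Its 4 genotype means lay within 0.084 of each other, and its arrays between 2.58 and 3.29 (mean 2.86 ± 0.06).

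The remaining genes among the 15 highest were more mixed. Ndn, the imprinted gene of necdin, a protein of postmitotic neurons, ranged from 2.92 to 4.15 (mean 3.36 ± 0.08). Rac3, a small GTPase of developing neurons, ranged from 1.97 to 4.21 (mean 3.25 ± 0.09). Usp22, a ubiquitin protease of the SAGA complex, averaged 3.40 ± 0.13 over 4 spots. Its lowest array was wild-type replicate 1 at 1.69, and the other 15 arrays were above 2. Samd14 averaged 3.28 ± 0.09 and the transcriptional coactivator Zcchc12 3.07 ± 0.12. Rev3l, the catalytic subunit of the translesion DNA polymerase zeta, averaged 2.98 ± 0.10, and the predicted gene Gm11223 2.92 ± 0.06. Each of these 4 was above the pool on all 16 arrays, which the definition of far genes requires. Of the 15 highest genes, Rac3 alone differed between genotypes past the threshold (F test in limma, adjusted p = 0.014), with Cx43 heterozygous arrays above those of Cx43 null and wild type.

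Genes known from adult testis and lung were among the lowest. Prm2, the protamine that packs sperm DNA, had log2 ratios between -8.28 and -3.96 with a median of -6.75. Its mean of -6.49 ± 0.23 puts it 89.6-fold below the pool, the lowest of the far genes, and all 16 arrays were below -3. Smcp, a sperm mitochondrial capsule protein, lay between -6.70 and -4.80 with a median of -5.53 (mean -5.63 ± 0.13, 49.7-fold below). Scgb1a1, the secretoglobin of airway club cells, ranged from -7.45 to -4.62 with a median of -5.45 (mean -5.64 ± 0.16, 50.01-fold below). Sftpc, surfactant protein C of alveolar cells, ranged from -7.60 to -4.68 with a median of -5.60 (mean -5.61 ± 0.13, 48.9-fold below). None of these 4 sperm and lung genes passed the F test between genotypes.

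Genes of liver, stomach and heart were also among the 15 lowest. Serpina1e, an alpha-1-antitrypsin gene with near-identical copies that a cDNA spot may not separate, averaged -5.61 ± 0.12. Alb, serum albumin, ranged from -5.92 to -3.60 with a median of -5.11 (mean -4.99 ± 0.14). Pzp, an alpha-2-macroglobulin of plasma, averaged -4.92 ± 0.11. Apoc3, an apolipoprotein of triglyceride-rich particles, averaged -4.70 ± 0.16, and Bhmt, which methylates homocysteine, -4.67 ± 0.17. The trefoil peptides of gastric mucus, Tff1 and Tff2, averaged -5.39 ± 0.17 and -4.64 ± 0.12. Sprr2a1, a cornified envelope protein of squamous epithelium with near-identical copies, averaged -5.83 ± 0.14. Pln, phospholamban, the inhibitor of the cardiac calcium pump, averaged -4.98 ± 0.12, and its 3 spots lay between -5.25 and -4.66. Clps and Try4, which encode digestive proteins of the exocrine pancreas, averaged -5.47 ± 0.11 and -5.23 ± 0.17. By the definition of far genes, each gene of this paragraph was below the pool on all 16 arrays. The highest array was at -2.19 (Bhmt, Cx43 null brain). Alb and Apoc3 belong to the liver plasma proteins that settled the direction of the ratio, so their side is no result. Among them Serpina1e, Pzp, Bhmt, Sprr2a1 and Pln differed between genotypes (F test in limma, adjusted p = 0.0018 to 0.020), each with its mean nearest to 0 in wild-type brains. The 4 wild-type arrays of Sprr2a1 were above all 12 arrays of the other lines.

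**Figure D2:**
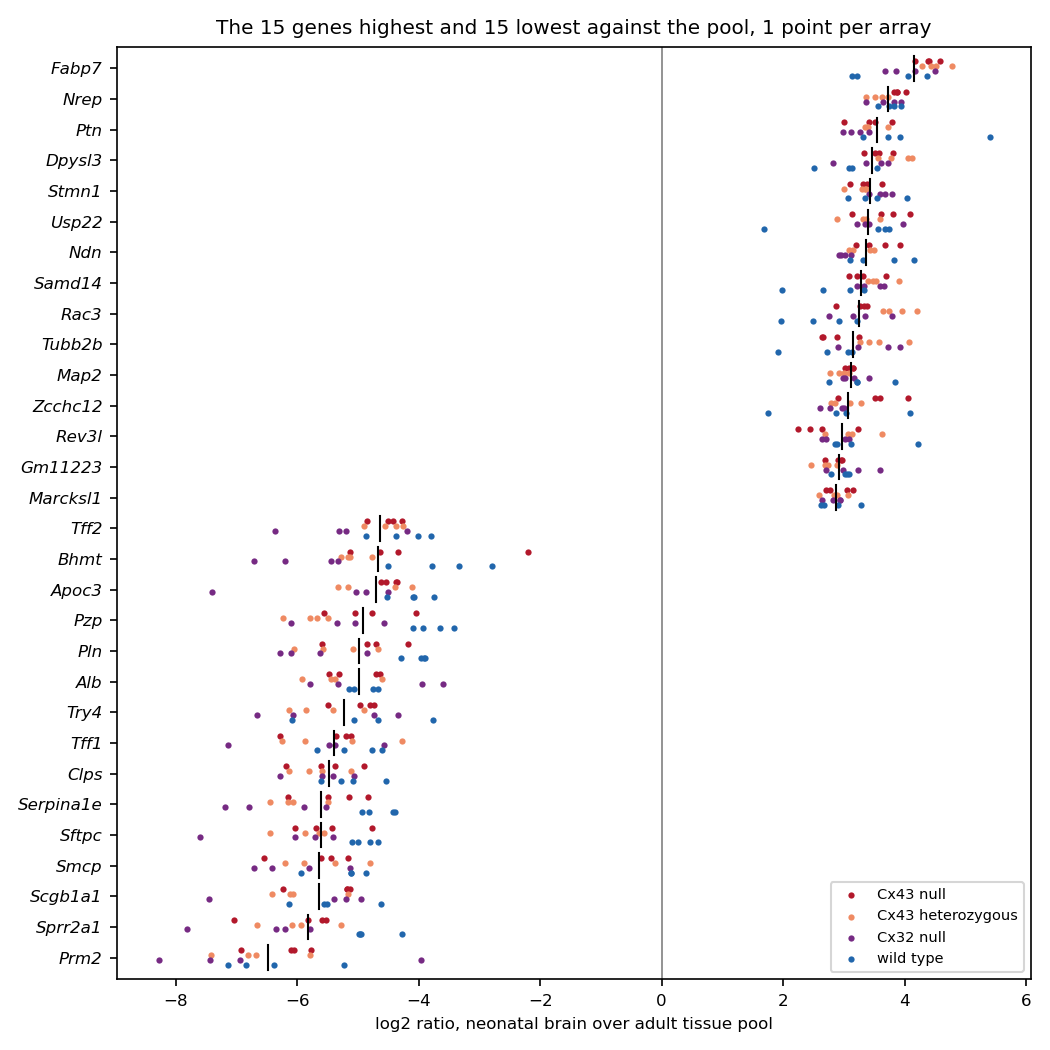
Log2 ratio of neonatal brain over the adult pool on each of the 16 arrays for the 15 highest and 15 lowest far genes (rows), coloured by genotype, with a black bar at the mean. The upper genes sit between 1.69 and 5.40 and the lower ones between -8.28 and -2.19. By the definition of far genes, no array of any of the 30 genes crosses 0.

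Gene lists are described by how many measured members passed on each side, beside 39.8% above and 41.9% below over all transcripts, and by the median of their members, beside a median of -0.02 over all transcripts. Of 16 measured neuron identity genes, all 16 were above the pool and 11 were far above. Their median was 2.30, and the list's median on an array lay between 2.02 and 2.90, above 0 on all 16. Map2 and Nsg2, an endosomal protein of neurons, led at 3.11 on 16 arrays and 3.03 on 15. The neuron tubulin Tubb3 averaged 2.83 and the axonal microtubule protein Mapt 2.63. The lowest of the 16 were Nefm, a neurofilament subunit, at 0.28, Rbfox3, the NeuN antigen, at 0.80 and Nefl, another neurofilament subunit, at 1.43, while the neurofilament protein Ina averaged 2.77. On all 16 arrays, 12 of the 16 members had a value above 0.

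Among 19 genes of newborn neurons and axon growth, 17 were above, 1 was below and Rufy3 did not pass, with a median of 2.49. Dclk1, a doublecortin-like kinase on microtubules, averaged 2.78, and the transcription factors Sox4 and Sox11 averaged 2.72 and 2.63. Dpysl2, a close relative of Dpysl3, was the member below the pool. It lay between -2.38 and -0.31 with a median of -0.97 (mean -1.12 ± 0.10, adjusted p = 1.0e-08), below 0 on all 16 arrays. The 2 relatives therefore lay on opposite sides of the pool on each array. A single spot measured Dpysl2.

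Axon guidance genes were above the pool for 20 of 25 members, with a median of 1.17. Robo1, the receptor for Slit proteins, averaged 2.18 on 15 arrays, and Plxna2, a semaphorin receptor, 2.12. The highest ligand was Efnb3, a membrane-bound ephrin, at 2.09. Slit3, a secreted ligand of Robo receptors, averaged -0.51 ± 0.06 and was below 0 on all 16 arrays. The netrin receptor Unc5b averaged -0.23. Sema3d, Ntn1 and Nrp1 did not pass, at 0.08, 0.05 and 0.03.

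Of 10 presynaptic genes, 9 were above, with a median of 1.22. Sv2a, a synaptic vesicle glycoprotein, averaged 2.34 on 15 arrays, and Gad1, which makes GABA, 1.59. Bsn, a scaffold of the active zone, did not pass at 0.04. Of 9 postsynaptic genes, 8 were above, with a median of 0.89, led by the GABA-A receptor subunit Gabra3 at 1.61 and the scaffold Homer1 at 1.28. Nrgn, the calmodulin-binding protein neurogranin, was the member below, at -0.50 ± 0.06, below 0 on all 16 arrays. By array, the list medians ran from 0.76 to 1.46 for presynaptic and from 0.52 to 1.36 for postsynaptic genes. Levels of different genes cannot be compared on this scale, since each ratio also depends on how much of the transcript the pool held.

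Neural transcription factors were above for 18 of 23, with a median of 0.80. Myt1l, a zinc finger factor of neurons, averaged 2.64, and Nfib, a nuclear factor I of cortical and glial development, 2.36. Emx2 and Lhx1 were below at -0.47 and -0.18. Eomes, of intermediate progenitors, did not pass at 0.02, nor did St18 and Pou3f1.

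Glial lists were split. Of 13 genes of astrocytes and radial glia, 7 were above and 3 below, with a median of 0.88. That median was 0.45 without wild-type replicate 1, 0.56 without wild-type replicate 2 or 3 and 0.52 without the 4 blocks out of step. With an array left out, a member needed all 3 remaining values of that genotype, so members may drop out. Besides Fabp7, Ptprz1, a receptor phosphatase of radial glia, averaged 2.64 ± 0.27 with arrays between 0.06 and 4.48. Its lowest array was Cx43 heterozygous replicate 4. Clu, the secreted chaperone clusterin, averaged -2.59 ± 0.08 with arrays between -3.32 and -2.12. Glul, glutamine synthetase, averaged -1.42, but its 4 spots ran from -2.36 to -0.06. Gja1 averaged -0.38 through the 2 Cx43 lines described above. Vim, Aldoc and Slc4a4 did not pass.

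Oligodendrocyte genes were few: Pdgfra, the receptor of oligodendrocyte precursors, averaged 0.58 with spots from -0.30 to 1.12. Mbp, myelin basic protein, averaged -1.69, and its 3 spots ran from -3.91 to 0.04, so its side depends on the spot. Tspan2 averaged -0.89, and the median of the 3 members was -0.89. No microglial gene was above the pool: 7 of 8 were below, with a median of -1.07, from Tmem119 at -0.68 to the protease Ctss at -2.52. Macrophages of spleen and other organs in the pool are known to express genes of this list too, and their part was not tested. Of 6 endothelial genes, 3 were below, led by Cdh5, the junction protein VE-cadherin, at -1.04, and 3 did not pass. Choroid plexus and meninges were divided evenly, 5 above and 5 below, with a median of 0.09. It was below 0 without wild-type replicate 1 (-0.45) or Cx43 heterozygous replicate 1, 2 or 3 (-0.41 to -0.40). Without wild-type replicate 4 it was 0.64. Leaving out an array also drops members that lack a value on another array of that genotype. Whether the lost members or the array moved the median was not tested. Otx2, a transcription factor of choroid plexus, averaged 1.43, and the water channel Aqp1 and the proteoglycan Dcn averaged -1.53 and -1.73. Red blood cell genes were below for 9 of 10, with a median of -1.41. The globins Hba-a2 and Hbb-bh1 averaged -2.08 and -2.04, and spots of different globin genes may not separate near-identical copies. In tissue samples, fewer cells of a type and less RNA per cell cannot be told apart.

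**Figure D3:**
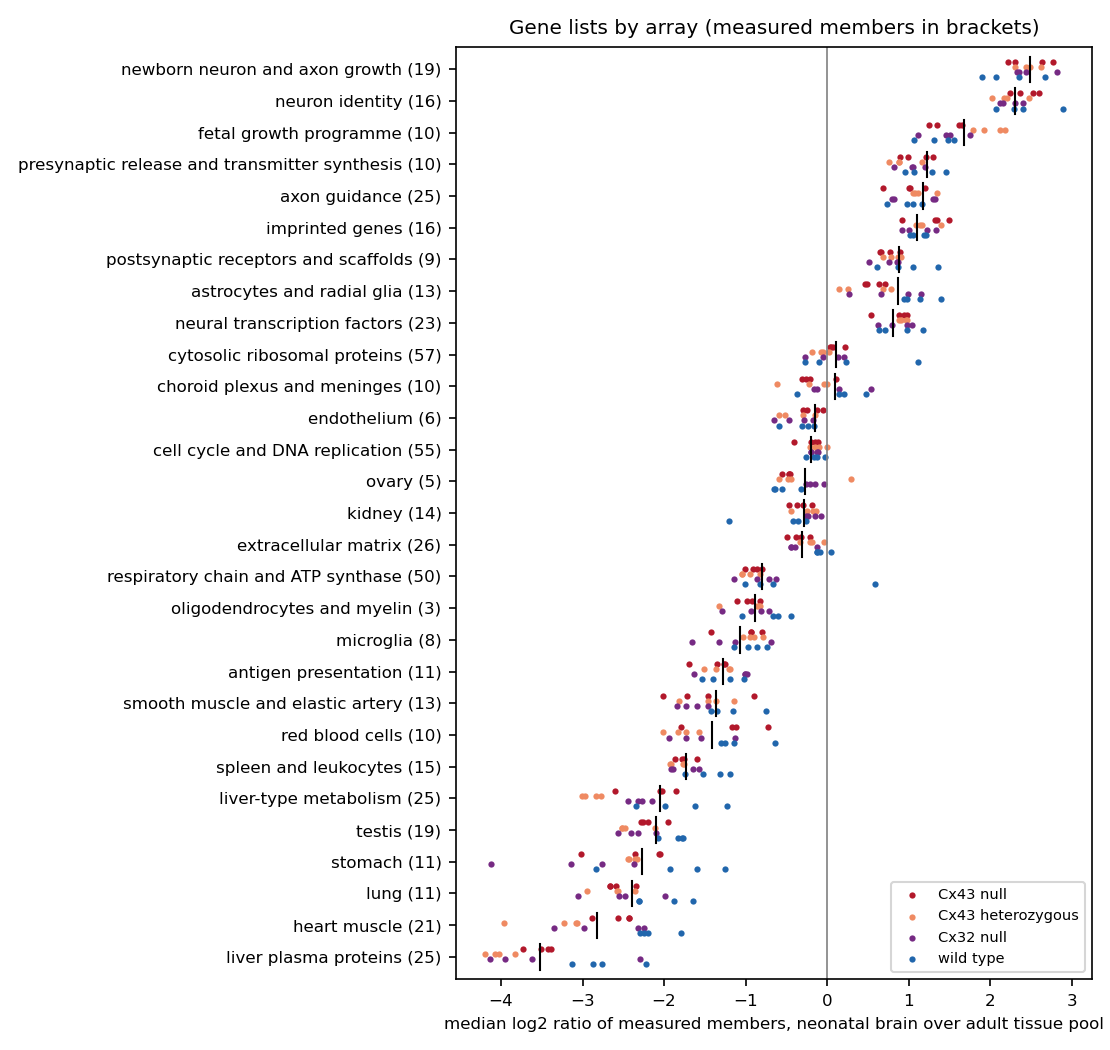
Median log2 ratio of the measured members of each of 29 gene lists (rows, number of members in brackets) on each array, coloured by genotype, with a black bar at the median of the members' means. Among the neural and growth lists, those of oligodendrocytes and of the cell cycle lie left of 0 on all 16 arrays and the others right of it, while all pool tissue lists but ovary and extracellular matrix lie left of 0 on all 16. Wild-type replicate 1 is the single point above 0 for the respiratory chain at 0.59.

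Imprinted and fetal growth genes were mostly above the pool. Of 16 imprinted genes, 13 were above, with a median of 1.10 and array medians between 0.92 and 1.496. Meg3, a maternally expressed noncoding RNA, averaged 2.54, and H19, another, 2.42 over its spots. Igf2, the fetal insulin-like growth factor, averaged 1.35, but its 3 spots ran from -0.47 to 2.94. Slc22a18 and Peg10 were below at -0.99 and -0.24. Of 10 fetal growth genes, which share Igf2 and H19 with the imprinted list, 9 were above, with a median of 1.68. Afp, alpha-fetoprotein, the fetal counterpart of albumin, lay between 1.85 and 3.48 with a median of 2.77 (mean 2.79 ± 0.10, adjusted p = 1.1e-14). All its arrays were above 0, and a single spot measured it. Mdk, the relative of Ptn, averaged 0.43, and Igf2bp1 did not pass at 0.02.

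Cell cycle and replication genes did not stand above the adult pool as a group. Of 55 measured, 11 were above, 26 were below and 18 did not pass, with a median of -0.19 and array medians from -0.40 to -0.003. Stmn1, also counted among newborn neuron genes, was the highest at 3.43, followed by the clamp loader subunit Rfc3 at 1.32. The proliferation marker Mki67 averaged 0.64. Tyms, thymidylate synthase, and Ccnb2, a mitotic cyclin, were the lowest at -1.91 and -1.85, each on 15 arrays. Adult testis and spleen in the pool hold dividing cells too, and their part in these ratios was not tested.

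Liver plasma proteins served to settle the direction of the ratio and are given without a reading of their side: 24 of 25 were below, with a median of -3.52 and array medians between -4.20 and -2.22. Of 25 genes of liver-type metabolism, 23 were below and 11 were far below, with a median of -2.05. The drug-metabolising Cyp3a11 averaged -5.07 on 15 arrays, and Cyp7b1, an oxysterol hydroxylase also known in brain, was the exception at 0.80. Heart muscle genes were below for 21 of 21, with a median of -2.83. After Pln came Nppa, atrial natriuretic peptide, at -4.91, whose arrays reached from -6.79 to 0.10, and Mb, myoglobin, at -4.30.

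Lung genes were below for 10 of 11, with a median of -2.39, and 8 were far below. Abca3, the lipid transporter of lamellar bodies, was above the pool on all 16 arrays at 1.09 ± 0.08. Testis genes were below for 18 of 19, with a median of -2.10. Tnp1, a transition protein of spermatids, averaged -6.01 on 15 arrays, and Odf2, also a protein of centrosomes, was above on all 16 at 0.38. Stomach genes were below for 11 of 11, with a median of -2.27. Spleen and leukocyte genes were below for 13 of 15, with a median of -1.73, led by lysozyme Lyz2 at -2.93 and Cd79b of the B cell receptor at -2.69. Rac2 was listed above at 0.32, with spots at -0.34 and 1.04.

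Antigen presentation genes were below for 10 of 11, with a median of -1.27. The class II chain H2-Ab1 averaged -3.23 and beta-2-microglobulin, B2m, -3.22, with 3 spots between -3.39 and -3.03. Smooth muscle and elastic artery genes were below for 10 of 13, with a median of -1.36, and the tropomyosins Tpm1 and Tpm2 averaged -3.78 and -3.43. The medians of kidney and ovary were closer to 0. Of 14 kidney genes, 8 were below and 2 above, with a median of -0.28. Pdzk1, a scaffold of proximal tubule transporters, averaged -2.03, and Gatm, which makes the precursor of creatine, 0.57. Of 5 ovary genes, 3 were below, with a median of -0.27 and Gdf9, an oocyte growth factor, at -0.78.

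Extracellular matrix genes were below for 14 of 26 and above for 8, with a median of -0.31, which was -0.197 without Cx32 null replicate 3 and -0.204 without Cx43 heterozygous replicate 3. Timp2, a metalloproteinase inhibitor, averaged 1.38 and Col18a1, a basement membrane collagen, -1.10. Respiratory chain genes were below for 45 of 50 and none was above, with a median of -0.79. Cox8a, a subunit of cytochrome c oxidase, was the lowest at -2.63. The array medians of the list lay between -1.15 and -0.63 on 15 arrays and at 0.59 on wild-type replicate 1, the array that correlated least with the others. Whether the 2 facts are linked was not tested. Cytosolic ribosomal proteins had 19 of 57 above and 11 below, with a median of 0.11 that was -0.01 without wild-type replicate 1 and 0.07 without Cx32 null replicate 1. The same array stood at 1.11 there, against -0.27 to 0.23 on the other 15. Medians with an array left out may rest on fewer members, here and for extracellular matrix.

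How far the ratio depended on the genotype was tested with an F test over the 4 genotype means in limma. The strain label of wild type differs from that of the connexin-deficient lines, so genotype and strain cannot be told apart against wild type. For Cx32 null brains, not labelled neonatal, age cannot be told apart from genotype either. This holds for all genotype differences below. Of all transcripts, 3690 differed between genotypes at an adjusted p under 0.05 (25.8%). Without wild-type replicate 2 the count was 1954, of 12534 transcripts tested. Since the far genes hold their side on every array, a genotype difference among them is one of size. Of the genes far above, 25 of 124 differed (20.2%), and of the genes far below, 79 of 183 (43.2%). The median gap between the highest and the lowest genotype mean was 0.55 for genes far above and 1.01 for genes far below.

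The median of the genes far below was closer to 0 in wild-type brains. Their median log2 ratio was -2.81 in Cx43 null, -3.14 in Cx43 heterozygous and -2.86 in Cx32 null brains, against -2.32 in wild-type brains. For 134 of the 183 genes the wild-type mean was the nearest to 0 of the 4, and the nearest was Cx43 null for 16, Cx43 heterozygous for 13 and Cx32 null for 20. The same share over all named genes was not taken, so the count is not read as particular to the genes far below. By array, the medians ran from -2.97 to -2.66 in Cx43 null, from -3.39 to -2.94 in Cx43 heterozygous and from -3.36 to -2.64 in Cx32 null brains, against -2.65, -2.40, -2.34 and -1.92 in wild-type brains. The lowest wild-type array, replicate 3, overlapped with Cx32 null. Replicate 1, which stood apart, was the array nearest to 0 for 73 genes. For the genes far above, the medians were 2.36 in Cx43 null, 2.30 in Cx43 heterozygous and 2.40 in Cx32 null brains, against 2.43 in wild-type brains. The median spread between wild-type arrays of a far-above gene was 0.46 (SD), against 0.20 to 0.27 in the 3 lines. For the genes far below it was 0.40 in Cx43 null, 0.34 in Cx43 heterozygous and 0.54 in Cx32 null brains, against 0.47 in wild-type brains.

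The line with the lowest mean differed between genes. Cyp2d9, a liver cytochrome P450, averaged -4.15 in Cx43 null, -5.24 in Cx43 heterozygous and -5.15 in Cx32 null brains, against -2.16 in wild-type brains (F test in limma, adjusted p = 0.00064). Its gap between genotype means, 3.09, was the widest of the 307 far genes. Pzp averaged -4.85 in Cx43 null, -5.80 in Cx43 heterozygous and -5.27 in Cx32 null brains, against -3.78 in wild-type brains (adjusted p = 0.0018 in limma). The lowest mean of Serpina1e, Sprr2a1, Pln and Bhmt was that of Cx32 null brains, at -6.35, -6.54, -5.71 and -5.92. Over 12 lists of pool tissues, the wild-type mean of the list median was the nearest to 0 in 9. That count was not taken over the other lists, and all lists rest on the same 4 wild-type arrays. In none of the 29 lists did the 4 wild-type arrays separate from the other 12.

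**Figure D4:**
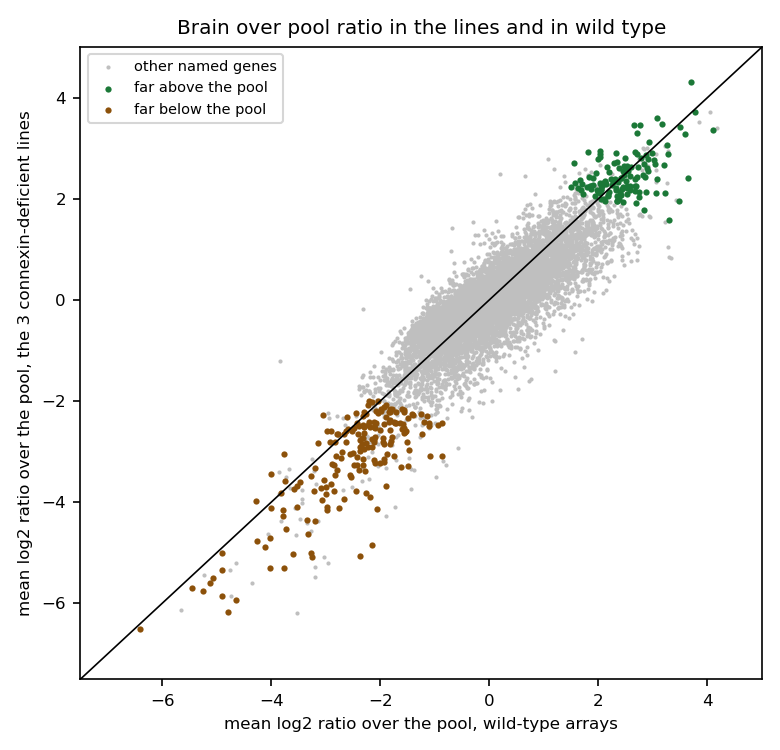
Mean log2 ratio over the pool in the 3 connexin-deficient lines (vertical) against that in wild-type brains (horizontal), 1 point per named gene, with the line of equality. Most of the genes far below lie under the line, with a wild-type median of -2.32, while those far above lie on both sides of it.

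Some genes changed side between genotypes. Of the 8691 named genes, 487 lay above the pool on all 4 arrays of some genotype and below it on all 4 of another. Of these, 336 passed the F test, against 25.8% of all transcripts. The 487 were picked from the same arrays for a split between genotypes, so a high share is largely built into the choice. Wild type was a member of the pair with the widest gap in 374. The most frequent pattern was above the pool in wild type and below it in Cx43 heterozygous brains, with 144 genes. Gja1 was among the 487. The widest gap was that of Klhdc3, a kelch domain protein, which averaged 0.54 in Cx43 null, -2.81 in Cx43 heterozygous and 0.30 in Cx32 null brains, against 0.86 in wild-type brains. Gcdh, glutaryl-CoA dehydrogenase of lysine breakdown, had its lowest genotype mean at -2.05 and its highest, in wild type, at 1.19. Zfp873 had genotype means from -1.04 to 1.70, the highest in wild type, and C030034L19Rik from -0.68, in wild type, to 2.19. These genes were chosen for their gaps, and their values are a description.

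Promoter windows of the far genes differed in CG content. RefSeq windows were found for 95 of the 124 genes far above and 143 of the 183 far below. The median number of CG dinucleotides was 17 in 153 windows of genes far above and 7 in 178 windows of genes far below. It was 20 over the 8945 windows of all named genes tested. Windows with fewer than 5 CG made up 11.8% for genes far above and 38.2% for genes far below, against 11.5% for all named genes tested. The motif TATAAA, on either strand, occurred in 8.50% of the far-above windows and 14.0% of the far-below windows, against 7.56% for all named genes tested. Over all 32851 windows of the reference table, which hold many genes that were not measured, the shares were 38.0% with few CG and 13.6% with the motif. A gene with several start sites has several windows, so the windows are not independent, and no test was made. The match of a motif describes letters and is no evidence of binding.

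**Figure D5:**
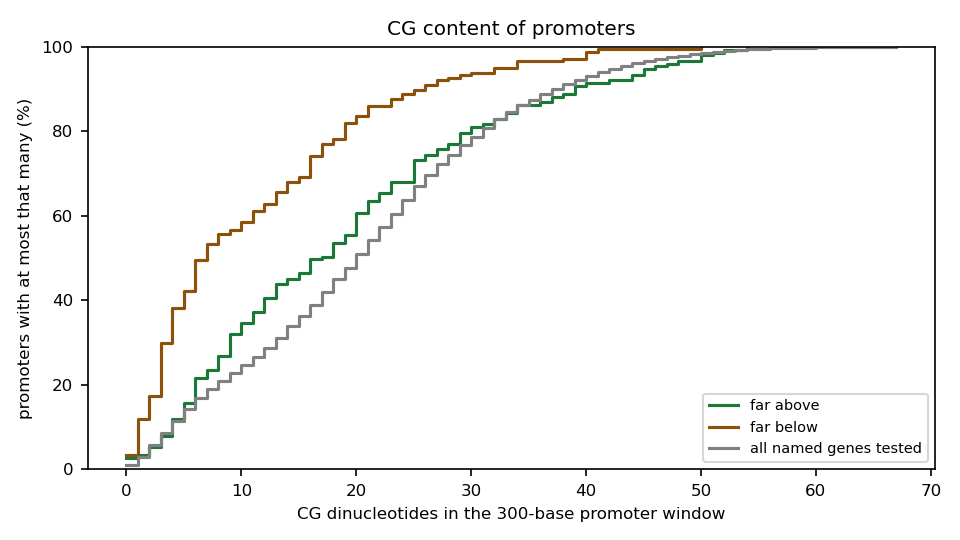
Share of promoter windows with at most a given number of CG dinucleotides (vertical, %) by that number (horizontal), for genes far above, genes far below and all named genes tested. The far-below curve rises first, with a median of 7, while the far-above curve, with a median of 17, lies close to that of all named genes tested, with a median of 20.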

How the data were processed

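The authors deposited a log ratio for each spot on each array, taken here as log2. Its log base, its numerator and how it was normalized are not given in the sources used here. Liver plasma proteins had a median below 0 on 16 of 16 arrays, so brain over pool is likely the direction, and that list gives no result on its own side. Per the labels a reference pool was shared by all arrays. Nothing states separate animals or litters behind the replicates, and the spread behind the p-values is that of these samples, which may be technical.

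Arrays, with medians of -0.13 to 0.28 as deposited, were each shifted to a median of 0. Of 28704 spots, 18511 were given 1 symbol (18267 through the gene identifier, 244 as the platform lists it), 937 have several and 9256 none. Spots of a symbol were averaged. Transcripts needed 3 values in each genotype. Genotype means were fitted with limma 3.58.1 in R 4.3.3 (lmFit, eBayes, 2-sided, residual df 12), and their mean was tested against 0 with Benjamini-Hochberg adjustment over 14329 transcripts at 0.05. On simulated data with 200 changed transcripts among 14329, 200 were recovered with 208 calls, 8 of them false. The planted log2 ratios were 1 or 2 in size, large against the simulated noise, so full recovery was nearly fixed in advance. The noise was independent, with no genotype differences, dye effect or blocks out of step. The simulation checks that the code runs and gives no error rate for these data.

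Named genes were the 15 highest and 15 lowest far genes, up to 2 passing members on each side of every list, Gja1, the 2 genes on each side of each size limit, and the 5 widest gaps between genotypes on opposite sides. Other list members, Cyp2d9 and the genes of the last paragraphs were named after their values were seen. The members, the 29 lists and the tests were chosen with earlier results of these data known. The count of genotype differences under the alternatives was added after seeing the data. Wild-type replicate 3 carries different numbers in its title and channel label, and the title was followed. No intensities or flags were used here, so signal over background is not known. Empty cells were left as missing.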

Additional observations from a re-analysis of the deposited data

Results flagged for a closer look

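In 32 of 548 groups of 4 arrays, made from each named gene and list in each genotype, a single array lay far from the other 3. Chance gives about 1 in 20 such groups. The log2 ratio of that array is in brackets. Cx43 null replicate 1 stood apart for Nrgn (-0.61). For Robo1 (1.87), Pdgfra (-1.06) and Rpl5 (0.52), the array apart was Cx43 null replicate 3. Cx43 null replicate 4 stood apart for Scgb1a1 (-6.23), Igf2 (0.75) and Cox8a (-3.87). For Homer1 (2.90), the array apart was Cx43 heterozygous replicate 1. Cx43 heterozygous replicate 2 stood apart for Klhdc3 (-1.64). For Ptn (3.73), Ctss (0.52) and Cd79b (-1.61) and for the list median of ovary (0.30), the array apart was Cx43 heterozygous replicate 3. Cx43 heterozygous replicate 4 stood apart for Ptprz1 (0.061) and Tspan2 (-1.32) and for the list medians of oligodendrocytes and myelin (-1.32) and testis (-2.11). For Robo1 (2.20), Slit3 (-0.75) and Sohlh1 (-1.58), the array apart was Cx32 null replicate 1. Cx32 null replicate 2 stood apart for the list median of extracellular matrix (-0.12). For Lrp2 (0.57), the array apart was Cx32 null replicate 3. Cx32 null replicate 4 stood apart for the list median of antigen presentation (-1.63). For Usp22 (1.69), Ptprz1 (4.48), Psme1 (1.97), Odf2 (0.51), Tpm1 (-1.13) and C030034L19Rik (-1.39) and for the list median of kidney (-1.20), the array apart was wild type replicate 1. Wild type replicate 2 stood apart for Sprr2a1 (-4.27) and Hsd3b1 (-3.98).

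The ratio over the pool differed between genotypes for 37 of the 114 named genes (F test over 4 genotype means in limma, adjusted p under 0.05 over all transcripts), against 25.8% of all transcripts. The named genes include Gja1 and the 5 widest gaps between genotypes, so part of this share is built into the choice. The adjusted p is in brackets, after the lowest and highest genotype mean. Above the pool in all 4 genotypes were Rac3 (2.65 to 3.89, 0.0144), Robo1 (1.37 to 2.53, 0.0103), Sv2a (1.72 to 3.42, 0.0103), Gabra3 (1.13 to 2.18, 0.00612), Myt1l (1.81 to 3.04, 0.0407), Nfib (1.80 to 3.06, 0.00307), Otx2 (0.73 to 2.45, 0.000655), Igf2 (1.00 to 1.95, 0.0457), Abca3 (0.83 to 1.63, 0.0357), Timp2 (0.88 to 2.25, 0.00337), Rpsa (0.52 to 1.85, 0.0304) and Klhl13 (1.72 to 2.36, 0.0186). Below it in all 4 were Sprr2a1 (-6.54 to -4.79, 0.0204), Serpina1e (-6.35 to -4.64, 0.00641), Pln (-5.71 to -4.02, 0.00757), Pzp (-5.80 to -3.78, 0.00179), Bhmt (-5.92 to -3.61, 0.009404), Dpysl2 (-1.78 to -0.82, 0.0494), Mbp (-2.24 to -1.29, 0.01701), Ctss (-3.71 to -0.88, 0.00387), Dcn (-2.58 to -0.37, 0.00495), Aqp1 (-2.31 to -0.54, 0.000252), Hpx (-6.88 to -3.53, 0.01703), Pdzk1 (-2.23 to -1.57, 0.0304), Nppa (-5.72 to -3.19, 0.0405), Tpm1 (-4.71 to -2.76, 0.00612), Tpm2 (-4.20 to -2.27, 0.01299), Col18a1 (-1.71 to -0.28, 0.0115), Alas2 (-2.78 to -1.15, 0.00767) and Phkg2 (-2.59 to -1.25, 0.00233). On both sides were Gatm (-0.38 to 1.21, 0.00114), Rpl13a (-0.89 to 0.08, 0.0184), Gja1 (-1.83 to 1.56, 8.41e-05), Klhdc3 (-2.81 to 0.86, 4.2e-06), Gcdh (-2.05 to 1.19, 0.000644), C030034L19Rik (-0.68 to 2.19, 0.00771) and Zfp873 (-1.04 to 1.70, 0.00185).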

How the results depend on the processing

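The 36 alternatives gave these changes, whose causes were not tested except where the setting itself fixes them. Tested against a log2 ratio of 1 with limma's treat, 1025 transcripts were above and 935 below. With 4 genotype means as samples, 286 named genes were far below, since missing values and single arrays on the other side no longer barred a gene. Past the lower cut, 90 genes had a missing value and 13 had arrays on both sides. Far-below counts were 333 on Cx43 null arrays alone, 397 on Cx43 heterozygous and 287 on Cx32 null arrays alone. Far-above counts were 193 on Cx32 null and 230 on wild-type arrays alone. On 1 genotype alone, a side had to hold on its 4 arrays and not on 16. Between 15564 and 17939 transcripts were tested then, against 14329, so the setting itself can raise these counts. Read as natural logarithms, the values gave 383 genes far above and 372 far below. Leaving out single arrays gave 4874 to 5573 transcripts above, 5242 to 5878 below, 121 to 140 genes far above, 179 to 205 far below and 1954 to 4148 genotype differences, with the fewest without wild-type replicate 2. All other values of these counts were within 1.5 times those reported. Of passed transcripts 48.7% were above, and 53.8% with values as deposited, whose median over transcripts was 0.07.

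Replicate numbers are not stated to mark a litter or day, and arrays with the same number did not deviate together (r from -0.22 to 0.22 over 24 pairs). With the replicate block, 5708 transcripts were above, 6019 below, 124 genes far above, 183 far below and 3730 differed between genotypes. It changed none of these counts by over 1.5 times, and 4 of 16 arrays correlated best with their own number.

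Sides changed for Gja1 (0.11 on Cx32 null alone, 1.56 on wild type alone, 0.10 without Cx43 null), Klhdc3 (0.54 on Cx43 null, 0.30 on Cx32 null and 0.86 on wild type alone, 0.57 without Cx43 heterozygous), Lhx1 (0.016) and Gatm (-0.38) on Cx43 heterozygous alone, and Rpl13a (0.076), Gcdh (1.19), C030034L19Rik (-0.68) and Zfp873 (1.70) on wild type alone. Of 113 named genes that passed, 75 kept their call in every alternative. The list medians of choroid plexus and meninges (-0.45 to 0.66) and ribosomal proteins (-0.07 to 0.27) changed sign. Where arrays were left out, these medians may rest on fewer members. No signal over background was available to set limits by depth.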

Other observations

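Pancreas is not among the tissues the labels name for the pool, yet Clps and Try4, genes of its exocrine cells, were among the 15 lowest far genes. The genes of this paragraph were chosen after their values were seen. Besides Clps (colipase) and Try4 (a trypsin), Pla2g1b, the pancreatic phospholipase, averaged -5.19 ± 0.14 with a highest array of -4.16 on 15 arrays. Amy1, an amylase gene that has near-identical copies and is not particular to pancreas, lay between -4.29 and -2.80 (mean -3.58 ± 0.11). Cpa1, a carboxypeptidase, lay between -3.41 and -0.98 (mean -2.06 ± 0.13). Sycn, a zymogen granule protein, averaged -1.33 on 15 arrays. Pnliprp1, a lipase relative, lay on the other side at 0.98 ± 0.05, above 0 on all 16 arrays. The source of this signal was not tested.

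Several gene families had a member above the pool and another below it on all 16 arrays, each past 1.5 in size and also chosen after their values were seen. Septin3 averaged 2.46 and Septin4 -2.05. The nonmuscle myosin Myh10 averaged 2.09 and the perinatal skeletal myosin Myh8 -2.34. Jph4, a junctophilin of neurons, averaged 1.60 and Jph2, that of heart, -2.02. Bcat1, the cytosolic branched-chain aminotransferase, averaged 1.60 and the mitochondrial Bcat2 -1.51. Smc1a, a cohesin subunit, averaged 1.75 and its meiotic relative Smc1b -1.93. The homeobox genes Meis2 and Meis3 averaged 2.24 and -1.72.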
